A study of Mus musculus with 54 samples.

Results

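Prieurianin was set against both of its controls in mouse 3T3-L1 cells at 2, 3 and 5 h, the hours taken as the onset of its response. Members were chosen by sample title: 3 arrays of cells given 2 µM prieurianin, 3 arrays of cells given 0.5% DMSO and 3 arrays of untreated cells, each at 2, 3 and 5 h. They are 9 of the 54 arrays of a time course that has 1 array per arm and time. All 9 come from the 3T3-L1 line, fibroblast-like preadipocytes that can be turned into fat cells in culture, and RNA was measured on a single-colour oligonucleotide array. The labels do not say whether the prieurianin cells also received DMSO, nor whether the times are separate cultures, so times stand in for replicates and p-values measure the spread of a difference between times.

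Prieurianin is a limonoid, a plant triterpenoid reported to stabilise actin filaments in plant cells. In mammalian cells, actin monomers hold back the coactivators MRTF-A and MRTF-B. When monomers are drawn into filaments these enter the nucleus and, with the factor SRF, switch on genes of the actin cytoskeleton through a promoter element called the CArG box. The coactivators YAP and TAZ, which act with TEAD factors, also respond to the state of the actin cytoskeleton. Immediate early genes such as Fos are a further group of SRF targets, induced within minutes of serum or growth factors.

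A gene's level here is log2(intensity + 16) after quantile normalisation, and a difference is prieurianin minus the mean of DMSO and untreated at the same times, from limma with time as a block. A gene was to count as changed at a Benjamini-Hochberg adjusted p under 0.05 with prieurianin on the same side of both controls. By that rule limma called 0 of 12792 genes (0%), with 2492 genes (19.5%) at an unadjusted p under 0.05 and a lowest adjusted p of 0.0502. Genes are therefore described below as higher or lower by their values, and none is said to have changed. A second description needs no model: prieurianin lay above both controls at 2, 3 and 5 h for 670 genes (5.24%) and below both at all 3 times for 1011 genes (7.9%).

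The 2 controls were not alike in this window. DMSO minus untreated was called for 1415 genes (11.1%), 886 higher (6.93%) and 529 lower (4.14%). Prieurianin minus untreated was called for 1633 (12.8%), 906 higher (7.08%) and 727 lower (5.68%). With median centring these splits were 790 higher and 2854 lower for DMSO minus untreated, and 756 and 2780 for prieurianin minus untreated. On the deposited scale they were 1553 and 137 for DMSO minus untreated, and 994 and 325 for prieurianin minus untreated. Prieurianin minus DMSO was called for 0 genes (0%; limma, lowest adjusted p 0.32), with 971 at an unadjusted p under 0.05 (7.59%). Median deposited intensity ran from 109 to 116 on the prieurianin arrays, from 113 to 126 on the DMSO arrays and from 91 to 101.5 on the untreated arrays. Correlations between the 9 arrays ran from 0.9712 to 0.9944 across probes. Between 93 and 138 probes per array were saturated. The comparisons share the prieurianin arrays, so their counts are not independent. Of 16 fibroblast and preadipocyte markers, 15 were above the filter on low values on all 9 arrays. Of markers of other cell types on the array, 7 of 13 for macrophages, 6 of 9 for endothelium, 4 of 10 for epithelium and 3 of 10 for brown fat were also above it on all 9. Those above it included Cd14 and Csf1r (macrophages), Egfl7 and Esam (endothelium), Cldn4 and Cldn7 (epithelium) and Dio2 (brown fat). Those below it on all 9 included Ptprc (leukocytes), Adgre1 (macrophages), Kdr and Tek (endothelium), Epcam (epithelium) and Ucp1 (brown fat).

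The genes furthest above both controls included secreted and signalling genes whose levels were declining in DMSO cells. For 6 genes prieurianin was more than 1.5-fold above the nearer control at every time (0.0469% of genes tested), and for 0 genes it was as far below. In order of that gap they were Ccn2, Prkab2, 4930426L09Rik, F3, Ccn1 and Cul9, and in all 6 the DMSO level was lowest at 5 h. In bulk RNA a higher level in each cell and a larger share of cells with the gene on cannot be told apart. At more than 1.25-fold the counts were 29 above (0.227%) and 4 below (0.0313%). For 26 of the 29, DMSO was below untreated at 5 h, so at that time the difference from DMSO was the larger one.

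Ccn2, which encodes the matricellular protein CTGF, had levels of 13.75, 13.48 and 12.32 on the prieurianin arrays, against 12.70, 11.97 and 9.64 on the DMSO arrays and 12.46, 11.79 and 10.90 on the untreated arrays. Prieurianin was above both controls at each time, and the 3 arms all had their lowest level at 5 h. The difference from both controls was 1.61 ± 0.28 on the log2 scale (SE), a 3.05-fold level, with an adjusted p of 0.0981 in limma. It was 1.75 against DMSO and 1.47 against untreated. By time it was 1.17, 1.60 and 2.05 at 2, 3 and 5 h. Ccn2 was higher at 1 h than at 0 h in all 3 arms. At 0 h Ccn2 stood at 8.59 on the prieurianin array, 9.17 on the DMSO array and 8.82 on the untreated array. At 1 h it stood at 13.56 on the prieurianin array, 13.21 on the DMSO array and 13.17 on the untreated array. At 2 h prieurianin was above its own 1 h level, while DMSO and untreated were below theirs.

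Ccn1, the related matricellular gene Cyr61, had levels of 14.87, 14.68 and 13.72 on the prieurianin arrays, against 14.26, 13.71 and 11.99 on the DMSO arrays and 13.86, 13.41 and 12.43 on the untreated arrays. All 3 arms were lowest at 5 h, and prieurianin was highest at each time. The difference was 1.15 ± 0.17 (SE; adjusted p 0.0981, limma). F3, which encodes tissue factor, the trigger of coagulation, had levels of 15.18, 14.86 and 14.88 on the prieurianin arrays, against 14.52, 12.89 and 11.77 on the DMSO arrays and 14.31, 12.94 and 13.52 on the untreated arrays. Here prieurianin stayed near its 2 h level, while both controls were lower at 3 h than at 2 h. The difference was 1.65 ± 0.38 (SE; adjusted p 0.118, limma).

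Ankrd1, a cardiac ankyrin repeat protein and a YAP target, had levels of 10.09, 10.28 and 10.39 on the prieurianin arrays, against 9.50, 8.11 and 6.91 on the DMSO arrays and 9.77, 8.13 and 9.05 on the untreated arrays. Prieurianin was nearly level, DMSO had its lowest value at 5 h and untreated at 3 h. Its difference of 1.67 ± 0.46 (SE) had a wide error and an adjusted p of 0.145 in limma. Of 26 YAP and TEAD targets tested, 8 were above both controls at all times (30.8%, against 5.24% of all genes) and 1 below, with a median difference of 0.11 against -0.0071 over all genes. Crim1 (0.72), Nuak2 (0.45), Wwtr1 (0.29), which encodes TAZ itself, and Gadd45b (0.23) were above beside Ccn2, Ccn1, F3 and Ankrd1. The 1 below was Vgll4, a cofactor that competes with YAP for TEAD, at -0.64 ± 0.08 (SE), but its difference was already -0.64 at 0 to 1 h.

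Prkab2, a regulatory subunit of the energy sensor AMPK, had levels of 9.64, 9.69 and 9.56 on the prieurianin arrays, against 8.76, 8.39 and 7.78 on the DMSO arrays and 8.82, 8.77 and 8.63 on the untreated arrays. All 3 prieurianin values exceeded all 6 control values. The difference was 1.10 ± 0.15 (SE; adjusted p 0.0981, limma), with 1.32 against DMSO and 0.89 against untreated. Cul9, a cullin ubiquitin ligase scaffold, had levels of 13.63, 13.93 and 13.77 on the prieurianin arrays, against 12.91, 12.53 and 11.47 on the DMSO arrays and 13.04, 12.78 and 12.73 on the untreated arrays, again with all prieurianin values above all control values. The noncoding transcript 4930426L09Rik differed by 1.58 ± 0.31 (SE), from a low level on the control arrays. The rest of the 30 widest gaps included the growth arrest gene Gadd45g (0.65 ± 0.09), the signalling adaptor Traf5, the forkhead factor Foxs1 (1.09 ± 0.24), the villin-like gene Vill (1.002 ± 0.21), Plekho2 (0.86 ± 0.15), Greb1 (0.86 ± 0.21) and the adhesion receptor Mcam (0.49 ± 0.09, SE).

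**Figure D1:**
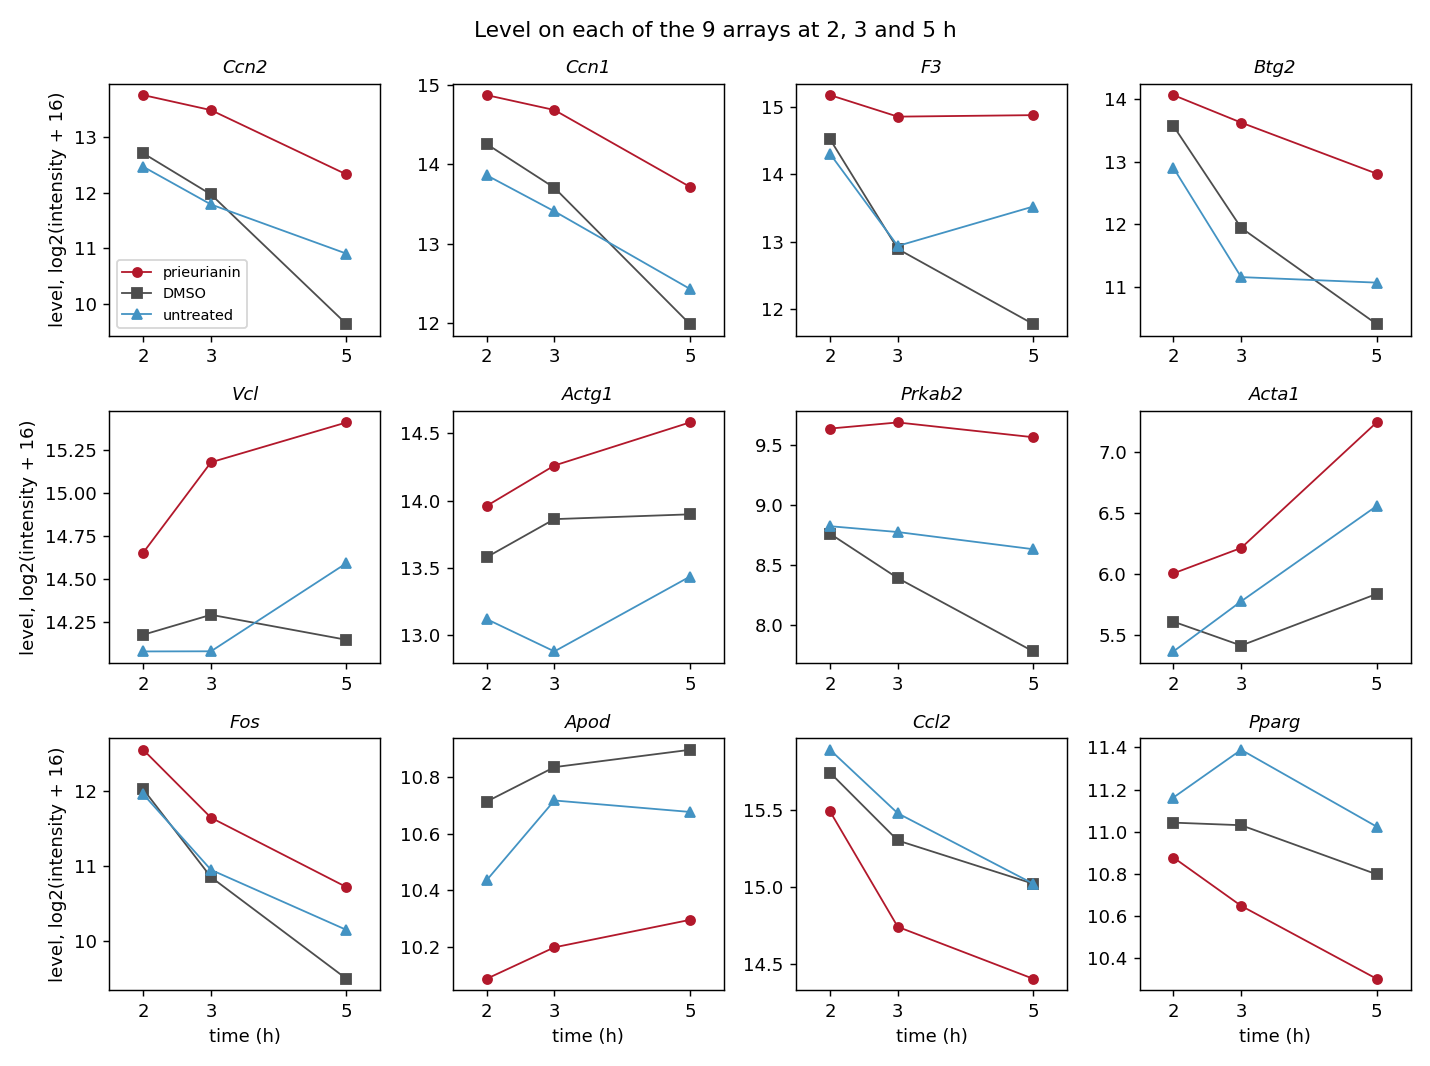
Levels of 12 genes, log2(intensity + 16), on each of the 9 arrays at 2, 3 and 5 h; each point is 1 array, red circles prieurianin, grey squares DMSO and blue triangles untreated, and axes differ between panels and do not start at 0. Prieurianin lies above both controls at every time for the genes from Ccn2 to Fos and below both for Apod, Ccl2 and Pparg.

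Genes of the actin cytoskeleton were the list most often above both controls. Of 36 listed actin cytoskeleton and SRF target genes, 33 were tested. Of these 20 (60.6%) were above both controls at all 3 times, set against 5.24% of all genes, and 1 was below. The list's median difference was 0.38 (0.43 against DMSO and 0.33 against untreated). By time the list's median stood at 0.22 (2 h), 0.47 (3 h) and 0.48 (5 h), after 0.02 over 0 to 1 h. With each array's values median-centred in place of quantile-normalised, 12 of the 33 were above both controls at all times and the median difference was 0.37. The list was drawn up with earlier results of these data known, so these counts are a description. Of 11 smooth muscle markers on the array, 8 were above the filter on all 9 arrays. Of the 9 tested, 3 were above both controls at all times, namely Actg2, Smtn and Cnn1. The summed intensity of the whole marker list was 69170 to 71270 on the prieurianin arrays, 46580 to 61920 on the DMSO arrays and 58620 to 69690 on the untreated arrays, most of it from Acta2, which reached the scanner ceiling. Without Acta2 the 10 others summed to 3677 to 5785 on the prieurianin arrays, 3191 to 3716 on the DMSO arrays and 3106 to 4201 on the untreated arrays. Kcnmb1 and Pln were below the filter on all 9 arrays. Of 16 skeletal muscle markers, 7 were above it on all 9 arrays and 5, among them Myf5, Myf6 and Ckm, below it on all 9. The part of these markers in the list's difference was not tested.

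Among the actins, cytoplasmic gamma-actin Actg1 had levels of 13.96, 14.26 and 14.58 on the prieurianin arrays, against 13.58, 13.86 and 13.90 on the DMSO arrays and 13.12, 12.88 and 13.43 on the untreated arrays. All 3 prieurianin values exceeded all 6 control values, but the gap to DMSO (0.49) was smaller than that to untreated (1.13). The difference from both was 0.81 ± 0.11 (SE; adjusted p 0.0981, limma). DMSO itself was 0.64 above untreated for this gene (adjusted p 0.0288, limma).

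Skeletal muscle alpha-actin Acta1 was dim, with levels of 6.005, 6.21 and 7.25 on the prieurianin arrays, against 5.61, 5.41 and 5.84 on the DMSO arrays and 5.36, 5.78 and 6.56 on the untreated arrays. Its DMSO and untreated means, 5.62 and 5.90, lie under the filter of 6.07, which it passed by its mean over all 54 arrays, so the size of its difference is uncertain. Prieurianin was highest at each time, though its 2 and 3 h values were below the untreated value at 5 h. Smooth muscle gamma-actin Actg2 had levels of 8.74, 9.62 and 10.59 on the prieurianin arrays, against 8.34, 8.09 and 7.98 on the DMSO arrays and 8.61, 8.24 and 9.56 on the untreated arrays. It was nearly level with the controls at 2 h and stood apart from 3 h on. Their differences were 0.73 ± 0.17 and 1.18 ± 0.34 (SE), with adjusted p of 0.118 and 0.151 in limma. Smooth muscle alpha-actin Acta2 was saturated on all 3 prieurianin arrays and 1 untreated array. Its difference of 0.25 is limited by that ceiling, and its 3 other probes gave 0.35, 0.74 and 0.77, the first from a dim probe.

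Vcl, which encodes vinculin, the link between integrin adhesions and actin, had levels of 14.65, 15.18 and 15.41 on the prieurianin arrays, against 14.18, 14.29 and 14.15 on the DMSO arrays and 14.08, 14.08 and 14.59 on the untreated arrays. The 3 prieurianin values were above all 6 control values. The difference was 0.85 ± 0.14 (SE; adjusted p 0.0981, limma), nearly the same against DMSO (0.88) as against untreated (0.83). Other adhesion and filament genes were above both controls at every time: the LIM proteins Lima1 (0.97 ± 0.25), Pdlim5 (0.91 ± 0.27), Tgfb1i1 (0.90 ± 0.24), Fhl2 (0.87 ± 0.21) and Zyx (0.67 ± 0.12, SE), zyxin being a component of tension-bearing adhesions. The myosin light chain Myl9 (0.75 ± 0.19) and the fibronectin receptor subunit Itga5 (0.57 ± 0.11) were too. The smooth muscle gene Cnn1 (0.38) was above both with a gap of 0.04 at its closest, while Tagln (0.38) was level at 2 h. Mrtfa, which encodes the coactivator itself, was the 1 gene below, at -0.20 ± 0.07 (SE).

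Outside that list, the 30 widest gaps above both controls held other genes with a part in the cytoskeleton, named after their values were seen. They included Smtn (0.97), which encodes the smooth muscle protein smoothelin, the actin bundler Palld (1.06), the motor Myo1e (0.44) and Cdc42ep3 (0.69), an effector of the GTPase Cdc42. Of 24 genes of actin monomer binding and filament turnover, 7 were above both controls (29.2%, against 5.24% of all genes) and 1 below, with a median difference of 0.03 that became -0.05 with median centring. Those above included the depolymerising factor Dstn (0.53 ± 0.11), its cofactor Wdr1 (0.46 ± 0.11) and the Arp2/3 subunit Arpc5 (0.50 ± 0.12, SE). The monomer-binding genes did not share a direction: thymosin Tmsb4x differed by 0.91, Tmsb10 by -0.41 and profilin Pfn1 by -0.27, the last with 0.07 against DMSO. Of 25 integrin and focal adhesion genes, 6 were above both (24%, against 5.24% of all genes) and 2 below (8%, against 7.9%). With median centring 1 was above and 0 below, where 392 of all genes were above and 965 below.

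**Figure D2:**
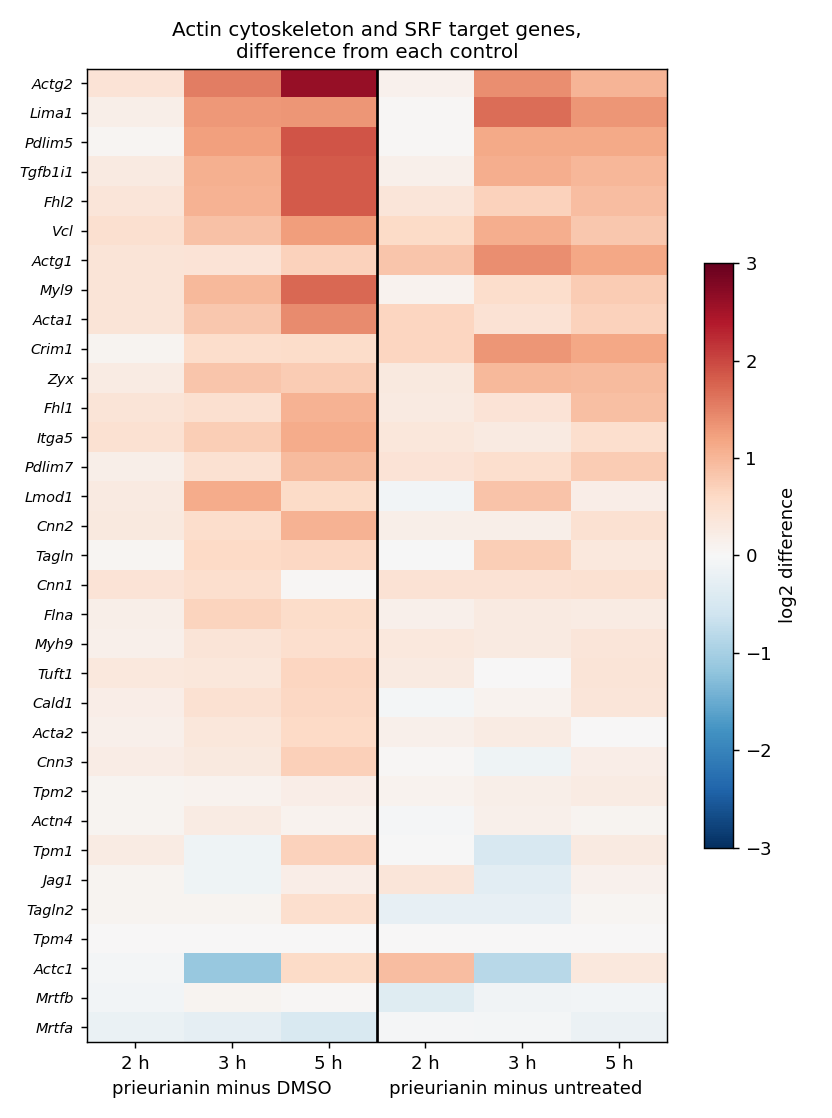
Log2 difference of prieurianin from DMSO (left of the line) and from untreated (right of it) at 2, 3 and 5 h for the 33 actin cytoskeleton and SRF target genes tested, sorted by the difference from both controls; red is higher and blue lower with prieurianin. The list's median is 0.22 at 2 h and 0.48 at 5 h, and Mrtfa, at the bottom, is lower in every column.

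Promoter windows from RefSeq (GRCm38.p6, 250 bases before to 50 after the start) were searched for the CArG box. This box is a C pair, 6 bases that are A or T, and a G pair. It was found in 1.63% of all 32851 windows. Counted by gene, 164 of the 10278 tested genes with a window held it (1.6%), as did 31 of 543 genes above both controls at all times (5.71%) and 13 of 853 below (1.52%). Among the 30 genes with the widest gap above, 7 of 28 with a window held it (25%), and among the 30 furthest below 0 of 25 did. On the actin and SRF list, 9 of 29 genes with a window held it. That list was compiled partly from known SRF targets, so its share is a description of the list. The TEAD half-site GGAATG, or CATTCC on the other strand, was far commoner, at 14.7% of all windows, and was in 14.9% of the genes above and 14.8% of all tested. Among the 30 widest gaps above it was in 9 of 28 (32.1%), and among the 30 furthest below in 5 of 25 (20%). It was in 12 of 19 YAP and TEAD targets with a window, again a list of known targets. The 2 motifs shared bases in 6 of all windows. A match describes these letters only.
The windows below show the CArG box, in capitals, upstream of 5 cytoskeletal genes and of the zinc finger gene Zfp644, all among the 30 with the widest gap, and then the TEAD half-site of Ccn1.
Actg1 (chr11:120348531-120348630, minus strand): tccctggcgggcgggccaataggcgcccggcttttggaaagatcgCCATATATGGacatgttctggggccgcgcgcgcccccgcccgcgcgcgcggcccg
Acta1 (chr8:123894794-123894893, minus strand): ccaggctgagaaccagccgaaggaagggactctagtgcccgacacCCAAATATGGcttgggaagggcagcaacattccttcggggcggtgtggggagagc
Vcl (chr14:20929148-20929247, plus strand): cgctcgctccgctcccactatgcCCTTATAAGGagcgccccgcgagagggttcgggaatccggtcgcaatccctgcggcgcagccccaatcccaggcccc
Fhl2 (chr1:43163962-43164061, minus strand): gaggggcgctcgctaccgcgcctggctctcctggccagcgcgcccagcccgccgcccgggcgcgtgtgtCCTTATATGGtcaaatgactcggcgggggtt
Myo1e (chr9:70207250-70207349, plus strand): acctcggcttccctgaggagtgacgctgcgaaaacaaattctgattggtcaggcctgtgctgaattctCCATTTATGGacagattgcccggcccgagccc
Zfp644 (chr5:106696853-106696952, minus strand): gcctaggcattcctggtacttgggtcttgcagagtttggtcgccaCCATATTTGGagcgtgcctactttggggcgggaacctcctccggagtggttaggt
Ccn1 (chr3:145650036-145650135, minus strand): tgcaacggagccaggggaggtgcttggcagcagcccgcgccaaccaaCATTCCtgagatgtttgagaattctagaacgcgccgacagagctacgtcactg
Positions are counted back from the annotated start. The boxes begin 90, 73, 227, 31, 32 and 77 bases before the start in that order, and the Ccn1 half-site 103 bases before it. Zfp644 differed by 0.64 ± 0.13 on the log2 scale (SE; adjusted p 0.106, limma).

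Immediate early genes split, with some held above the controls and others level with them. Of 35 tested, 8 were above both controls at all times (22.9%, against 5.24% of all genes) and 2 below (5.71%, against 7.9%). Btg2, an antiproliferative early gene also driven by p53, had levels of 14.07, 13.63 and 12.81 on the prieurianin arrays, against 13.57, 11.94 and 10.40 on the DMSO arrays and 12.90, 11.15 and 11.07 on the untreated arrays. Prieurianin was highest at each time and its 5 h value was above both controls' 3 h values. The difference was 1.66 ± 0.32 (SE; adjusted p 0.106, limma). Fos, a subunit of the transcription factor AP-1, had levels of 12.55, 11.64 and 10.72 on the prieurianin arrays, against 12.02, 10.85 and 9.50 on the DMSO arrays and 11.96, 10.95 and 10.15 on the untreated arrays. All 3 arms were lowest at 5 h and prieurianin was above both controls at each time. The difference was 0.73 ± 0.13 (SE; adjusted p 0.0981, limma).

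Ptgs2, which encodes the prostaglandin synthase COX-2, had levels of 14.16, 14.002 and 12.83 on the prieurianin arrays, against 13.73, 13.37 and 12.10 on the DMSO arrays and 13.46, 12.82 and 11.91 on the untreated arrays, a difference of 0.76 ± 0.09 (SE). Also above at every time were Egr2 (0.67), Nr4a1 (0.57), Zfp36 (0.53), Klf6 (0.52) and Plk2 (0.36). Other genes of the same class did not stand apart. At 0.5 h Fos had stood at 14.94 on the prieurianin array, 14.48 on the DMSO array and 14.62 on the untreated array. Egr1, the textbook SRF-driven early gene, had levels of 13.89, 13.03 and 11.12 on the prieurianin arrays, against 14.19, 13.43 and 11.31 on the DMSO arrays and 13.63, 13.17 and 10.87 on the untreated arrays. These interleave, with DMSO highest at each time. Fosb differed by 0.15 ± 0.11 and Atf3 by 0.52 ± 0.23 (SE). By time Atf3 differed by -0.12, 0.54 and 1.15 at 2, 3 and 5 h. Myc was below both controls at each time and differed by -0.31 ± 0.09 (SE), though the mean over all its probes gave 0.077.

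Secreted signals were on both sides. Inhba, the activin A subunit, had levels of 11.07, 11.14 and 10.99 on the prieurianin arrays, against 10.58, 10.57 and 9.68 on the DMSO arrays and 10.66, 10.57 and 10.02 on the untreated arrays, and prieurianin was above both controls at each time by 0.72 ± 0.14 (SE). The natriuretic peptide gene Nppb (0.54 ± 0.06) and the endothelin gene Edn1 (0.84 ± 0.19) were likewise above. Thbs1, a matricellular gene often grouped with Ccn1, differed by 0.85 from DMSO and 0.05 from untreated and was below untreated at 3 h. The macrophage and preadipocyte surface gene Cd14 differed by -0.46 ± 0.07 (SE) and was below both controls at each time, but its difference was already -0.26 at 0 to 1 h. Among 28 NF-kB targets and chemokines, 1 was above (3.57%, against 5.24% of all genes) and 4 were below both controls (14.3%, against 7.9%). The 1 above was Tnfaip3 (0.50 ± 0.11, SE), a brake on NF-kB, while the cytokine Il6 differed by 0.05 from DMSO and 0.62 from untreated. Ccl2, the monocyte chemoattractant MCP-1, had levels of 15.49, 14.74 and 14.40 on the prieurianin arrays, against 15.74, 15.30 and 15.02 on the DMSO arrays and 15.89, 15.48 and 15.02 on the untreated arrays. Prieurianin was lowest at each time, with a difference of -0.53 ± 0.08 (SE; adjusted p 0.0981, limma), and Ccl7 (-0.43 ± 0.10) and the adhesion receptor Vcam1 (-0.38 ± 0.12) lay on the same side.

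Of 19 adipogenic transcription factors, 2 were above both controls at all times (10.5%, against 5.24% of all genes), the early genes Egr2 and Klf6. Below both was 1 (5.26%, against 7.9% of all genes), Pparg. Of 21 adipocyte effectors, 0 were above and 3 below (14.3%, against 7.9% of all genes). Pparg, the master regulator of adipogenesis, had levels of 10.88, 10.65 and 10.30 on the prieurianin arrays, against 11.04, 11.03 and 10.80 on the DMSO arrays and 11.16, 11.39 and 11.02 on the untreated arrays. Prieurianin was below both controls at each time, with a difference of -0.46 ± 0.09 (SE; adjusted p 0.106, limma), which was -0.35 against DMSO and -0.58 against untreated. The preadipocyte receptor Pdgfra differed by -0.44 ± 0.11 and the adipogenesis inhibitor Trib2 by -0.65 ± 0.15 (SE), both below at each time. Cebpb (-0.24), Cebpa (-0.05), Klf15 (0.04) and the preadipocyte marker Dlk1 (-0.01) differed by less, and the signs of the last 3 depended on the scaling or on the times used. The fatty acid binding gene Fabp4 was level with DMSO (-0.03) and above untreated (1.31). The lipid droplet gene Plin1 differed by -0.87 ± 0.26 (SE) from dim levels of 5.30 to 7.03 on the 9 arrays, around the filter on low values of 6.07.

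Among the genes below both controls with the smallest p were 2 apolipoproteins. Apod had levels of 10.09, 10.20 and 10.29 on the prieurianin arrays, against 10.71, 10.83 and 10.90 on the DMSO arrays and 10.43, 10.72 and 10.68 on the untreated arrays, with all 3 prieurianin values below all 6 control values. It differed by -0.52 ± 0.06 and Apoc1 by -0.49 ± 0.06 (SE; adjusted p 0.0981 for each, limma). Ppdpf (-0.56 ± 0.07), Eid2 (-0.49 ± 0.06), an inhibitor of differentiation, and Agt (-0.43 ± 0.07), which encodes angiotensinogen, were also below at each time. Of 14 ribosome biogenesis genes, 0 were above (against 5.24% of all genes) and 4 below both controls (28.6%, against 7.9%): Nip7 (-0.39), Nolc1 (-0.37), Rrp9 (-0.27) and Nop56 (-0.23). With median centring 7 of the 14 were below.

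**Figure D3:**
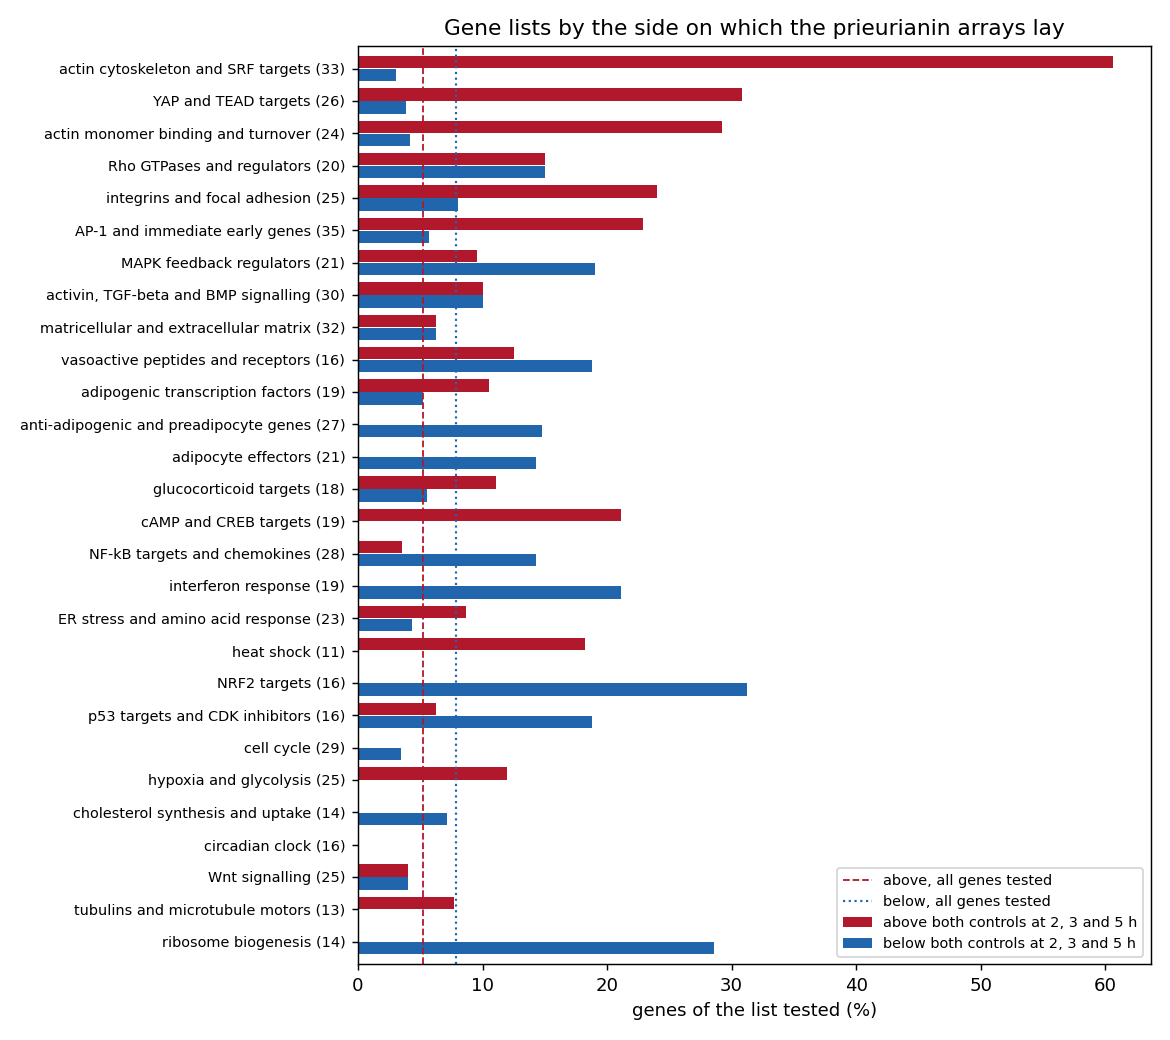
Share of the tested genes of each list (number tested in brackets) for which prieurianin lay above (red) or below (blue) both controls at 2, 3 and 5 h; the lines mark the same shares over all 12792 genes, 5.24% above and 7.9% below. The actin cytoskeleton and SRF list reaches 60.6% above, and the cell cycle list has 0 of 29 above.

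The genes with the smallest p and those with the widest gap overlapped, with Ccn2, Ccn1 and Prkab2 in both sets. The controls differed from each other more often in the first set. The gap is taken to the nearer control, so it is harder to meet where the controls differ. Of the 93 genes (0.727%) at an adjusted p under 0.1 and higher than both controls, 62 also differed between the controls, against 11.1% of all genes, all of them higher in DMSO than in untreated cells. Of the 43 lower (0.336%), 21 did, all of them lower in DMSO. Of the 29 genes more than 1.25-fold above at every time, 2 did, and their median difference was 0.52 (2 h), 0.97 (3 h) and 1.14 (5 h). These contrasts share their control arrays and their error estimate, so the counts are given as a description. Lrrn3, a leucine-rich repeat membrane protein, had levels of 10.38, 10.43 and 9.82 on the prieurianin arrays, against 10.04, 9.99 and 9.51 on the DMSO arrays and 8.90, 8.88 and 8.59 on the untreated arrays. Its difference was 0.36 against DMSO and 1.42 against untreated, with DMSO 1.06 above untreated, and was already 0.50 at 0 to 1 h. The receptor Oscar (0.49 and 1.38) and the nucleoside kinase Dck (0.41 and 1.52) had the same form. The part that the difference between controls has in these results was not tested.

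Other settings called some of these genes. Called in each of 4 settings (a stricter filter on low values, time as a random block, an error estimate over 51 arrays of the course, and a robust mean-variance trend) were 11 genes, named here after their values were seen. For all but Prkab2, Vcl, Traf5 and Abracl the controls also differed from each other (limma, adjusted p 0.00776 to 0.0269). Above both controls were Prkab2, Vcl, the actin nucleator subunit Actr3 (0.63 ± 0.10), the sphingosine-1-phosphate receptor S1pr1 (0.87 ± 0.10), Sh3bp4 (0.96 ± 0.16), Traf5 (0.86 ± 0.14), Abracl (0.58 ± 0.09) and Tmem123 (0.61 ± 0.07). Below were Eid2, Ppdpf and the prostaglandin E synthase Ptges (-0.61 ± 0.09, SE). Several of these differences were smaller against DMSO than against untreated: 0.26 and 0.95 for Tmem123, 0.31 and 0.96 for Actr3, 0.49 and 1.43 for Sh3bp4, -0.33 and -0.89 for Ptges. The robust fit called 326 genes in all (2.55%). With the error estimated over 51 arrays, limma called 30 genes (0.235%), 23 higher (0.18%) and 7 lower (0.0547%), with adjusted p of 0.000712 for Btg2 and 0.00124 for F3. Among the scalings, filters, probe choices and error models tried, the 4 settings above called the most genes. The deposited scale, no filter on low values and no time block each gave 0 calls. Prkab2 and Vcl each passed the threshold in 5 of 17 alternatives. All 4 settings use the same prieurianin arrays, so a call in each is no separate support.

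A change of the difference within the window could not be called. For the change per hour between 2 and 5 h limma called 0 of 12792 genes (0%), with 233 (1.82%) at an unadjusted p under 0.05, and it called 7 with median centring. The difference at 2 to 5 h less that at 0 to 1 h, over 21 arrays, was also called for 0 genes (0%), with 652 (5.1%) at an unadjusted p under 0.05. The actin and SRF genes were mostly above both controls from 2 h on. At 0, 0.25, 0.5 and 1 h, 8, 10, 7 and 11 of the 33 were above both controls and 11, 7, 19 and 6 below both. At 2, 3 and 5 h, 24, 26 and 29 were above and 2, 4 and 2 below. No share over all genes is given for single times, so these counts only describe the list.

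A change of the difference from 2 to 5 h to 9 to 15 h was called for many genes. Such a call means that the difference moved up or down, which need not make it larger. The difference at 9 to 15 h less that at 2 to 5 h passed for 1566 genes (12.2%; limma with Benjamini-Hochberg adjustment, 18 arrays), 781 higher (6.11%) and 785 lower (6.14%). The split depended on the scaling, with 161 higher and 53 lower under median centring and 249 higher and 447 lower as deposited. On the actin and SRF list it passed for 17 of 33 genes, all higher, and the list's median difference was 1.40 at 9 to 15 h. Actg2 had a difference of 5.85 at 9 to 15 h and 1.18 at 2 to 5 h, a change of 4.67 ± 0.48 (SE; adjusted p 0.000336, limma). Myl9 had 4.71 and 0.75 in the same order, Inhba 3.88 and 0.72, Acta1 3.73 and 0.73, and Vcl 2.70 and 0.85. The vasodilator peptide gene Adm, a hypoxia target, had 3.43 at 9 to 15 h against 0.27 at 2 to 5 h, the prion-like gene Prnd 4.90 against 0.68, and the apolipoprotein L gene Apol10b 3.43 against 1.39. Ankrd1 (1.08 and 1.67) and Fos (0.57 and 0.73) did not have a larger difference at the later times (adjusted p 0.658 and 0.772, limma).

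The medians of 3 further lists also moved between the windows. Those of the hypoxia and glycolysis list and the interferon list were higher at the later times, and that of the cell cycle list was lower. The hypoxia and glycolysis list had a median difference of 1.05 at 9 to 15 h and 0.08 at 2 to 5 h (-0.02 with median centring). At 2 to 5 h 3 of its 25 genes were above both controls (12%, against 5.24% of all genes). Among them was the glucose transporter Slc2a1 (0.39 ± 0.12, SE). The count became 1 with median centring and 0 as deposited. The cell cycle list had -0.76 and -0.06, and the interferon list 0.94 and -0.09. At 2 to 5 h, 4 of 19 interferon genes were below both controls (21.1%, set against 7.9% of all genes) and 0 above.

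**Figure D4:**
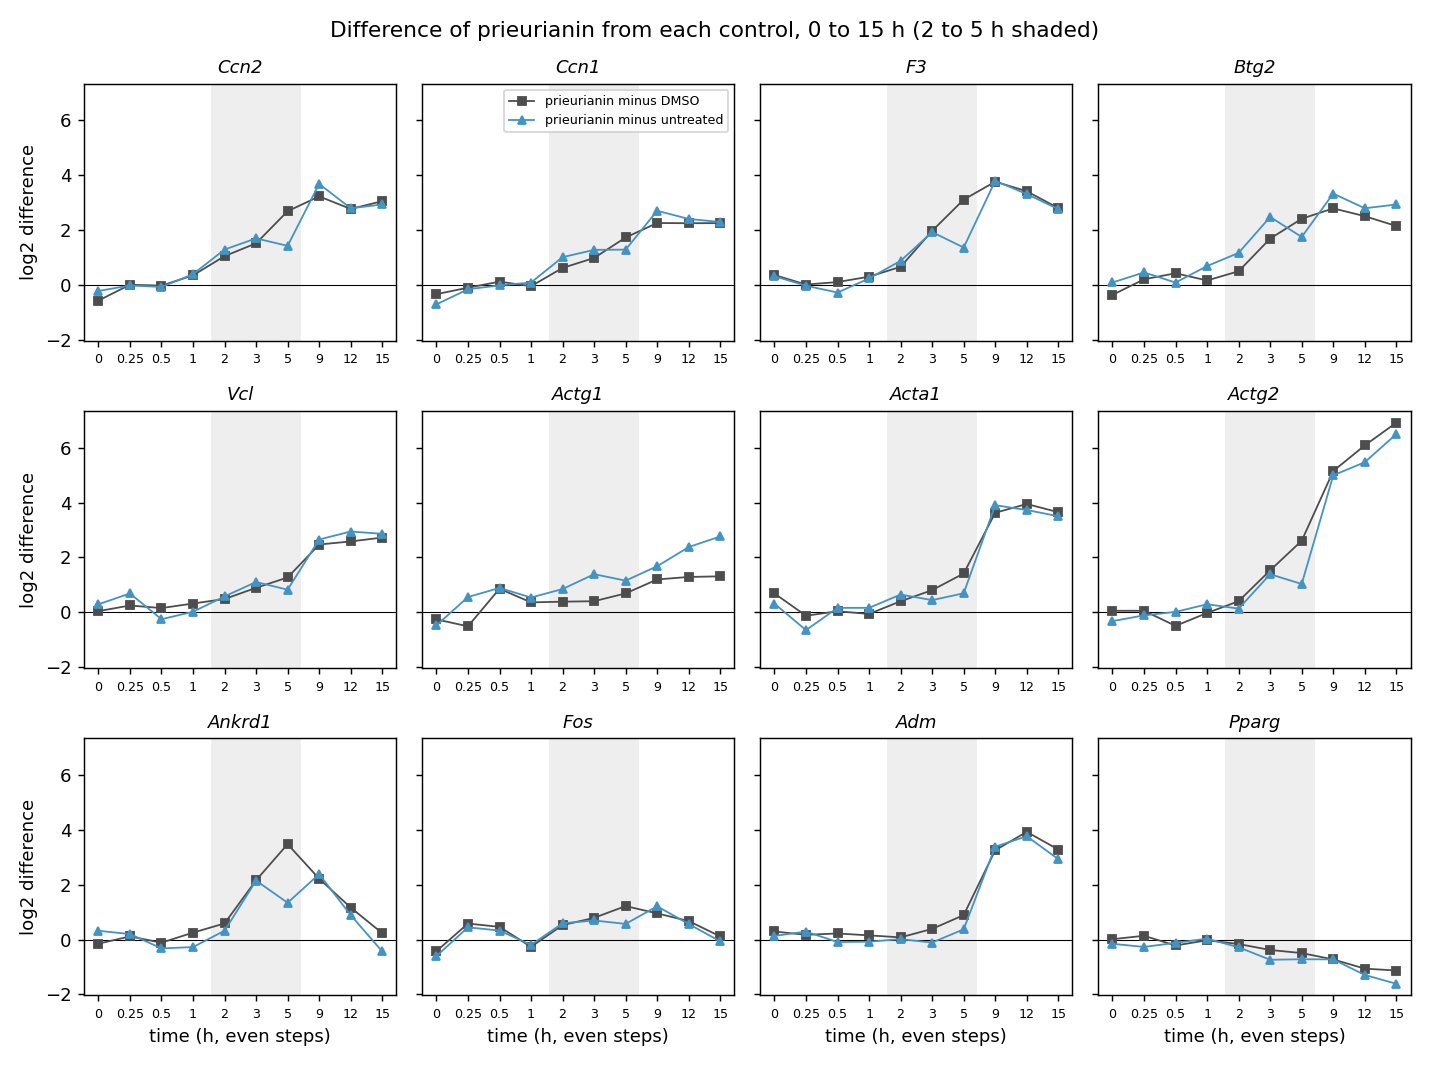
Log2 difference of prieurianin from DMSO (squares) and from untreated (triangles) at each time from 0 to 15 h, in even steps, for 12 genes; each point is a difference between 2 arrays and 2 to 5 h is shaded. Ccn2, Ccn1, F3 and Btg2 lie above 0 against both controls from 2 h on. Over 9 to 15 h the difference from both controls is largest for Actg2 (5.85), with 3.43 for Adm. At 15 h Ankrd1 has opposite signs against the 2 controls.

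A few genes showed abrupt values on single arrays or pairs of arrays. Clns1a, Ppif, Prpf38b, Ripk2 and Spopl were level with the controls at 2 h and more than 4-fold below both at 3 and 5 h, and 0 genes did the opposite. They were named after their values were seen. Clns1a, a splicing factor assembly gene, had levels of 12.73, 5.23 and 5.48 on the prieurianin arrays, against 12.74, 12.78 and 12.94 on the DMSO arrays and 12.92, 13.25 and 13.21 on the untreated arrays. The prieurianin values at 3 and 5 h lie below the filter on low values. The adaptor kinase Ripk2 had levels of 9.79, 5.52 and 5.56 on the prieurianin arrays, against 9.72, 9.80 and 9.75 on the DMSO arrays and 9.65, 9.63 and 9.76 on the untreated arrays. None was called on the 9 arrays (adjusted p 0.136 to 0.163, limma). With the error estimated over 51 arrays limma called Ripk2 (adjusted p 0.00145), Prpf38b (0.00327) and Ppif (0.011). Without the 2 h arrays it called 8 genes, Clns1a and Spopl among them. Both fits use the 3 and 5 h values by which these genes were picked, so the calls are no separate support. At 9 to 15 h the differences of these genes ran from -0.32 to 2.11. Gabrp, a GABA receptor subunit, had levels of 7.95, 7.57 and 11.93 on the prieurianin arrays, against 7.62, 6.77 and 7.37 on the DMSO arrays and 6.89, 7.20 and 7.67 on the untreated arrays. Its difference of 1.90 rests on the 5 h prieurianin array, since by time it was 0.70, 0.58 and 4.41.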

How the data were processed

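RNA from 3T3-L1 cells was measured on 54 single-colour arrays (the Mouse OneArray), 9 of which are compared here. Per the labels' protocols, RNA was isolated on columns, amplified as amino allyl aRNA and labelled with Cy5. The deposited values are intensities, judged so from the values themselves, which are whole numbers up to the ceiling of a 16-bit scanner. On each of the 9 arrays 89 to 264 probes had a deposited value below 0, so the values are not raw scanner readings. The sources used here do not describe any background subtraction or scaling by the authors.

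Intensities were quantile-normalised over the 54 arrays, values then below 0 were set to 0, and levels were taken as log2(value + 16). The platform annotation named 1 gene for 21020 of 29922 probes (3410 symbols were updated) and none for 8902. A gene was read from its probe with the highest mean, and genes with a mean log2 level above 6.07, the lower quartile of named probes, were tested (12792 of 16637). limma 3.58.1 in R 4.3.3 fitted time and arm to the 9 arrays (4 residual degrees of freedom), with Benjamini-Hochberg adjustment over all genes tested. Differences between windows were fitted on 21 arrays (0 to 5 h) and 18 arrays (2 to 15 h). The fits were tested on simulated data. The number of arrays limits their precision, and the labels give no array batch.

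Named genes are, in the main comparison, those with the smallest p in each direction that lay on the same side of both controls at all times, up to 4 members of each gene list by size of difference, and a preset set of cytoskeletal, early and adipogenic genes. Others are named for the gap to the nearer control, a rule added after seeing the data, as were the counts above or below both controls, the adjusted p under 0.1 and the 11 genes called in 4 settings. Members and lists were chosen with earlier results of these data known. Promoter windows came from RefSeq (GRCm38.p6), matched by symbol for 10278 of 12792 genes. Alternatives tried were other scalings, pseudocounts, filters, probe choices, error models, each control alone and each time left out. No column of per-sample values was left unused (0).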

Additional observations from a re-analysis of the deposited data

Results flagged for a closer look

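Each value here is the log2 difference of prieurianin from both controls at 9 to 15 h less that at 2 to 5 h, from limma over 18 arrays, listed because the difference between the time windows itself passed the test. In all 781 genes had a higher difference at the later times and 785 a lower one. Among cytoskeletal genes the change was 4.67 for Actg2, 3.96 for Myl9, 2.995 for Acta1, 1.85 for Vcl, 1.15 for Acta2, whose main probe was saturated on 4 of the 9 arrays, and 0.96 for Actg1. Secreted and membrane genes followed with 4.22 for Prnd, 3.15 for Adm, 3.15 for Inhba, 1.47 for Ccn2 and 1.21 for Ccn1. It was 2.04 for Apol10b, 1.60 for the early gene Egr2 and 1.14 for Klf15, which favours adipogenesis. For Ripk2 it was 3.44, from a difference of -2.76 at 2 to 5 h and 0.68 later.

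The difference was lower at the later times for Pparg (-0.63), Pdgfra (-0.74), Egr1 (-1.22), the zinc finger gene Bnc1 (-1.77), Wdr5b (-1.80), Ankle1 (-1.85), the aggrecanase Adamts5 (-1.93) and the resistin-like gene Retnla (-2.31). For Pparg the difference was thus -1.09 at 9 to 15 h and -0.46 at 2 to 5 h.

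Of 4609 probes above the filter without a gene symbol, which enter no comparison above, 1 had prieurianin more than 1.5-fold above both controls at every time and 199 had it above both at every time.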

How the results depend on the processing

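The precision rests on 3 times and 1 array per arm and time, with the controls differing from each other, and saturation limits Acta2. The count of 0 genes against both controls became 3 with median centring, 4 with log2(value + 64), 81 with a filter at the median of gene probes, 2 with the mean of all probes, 71 with time as a random block, 30 with 51 arrays, 326 with the trend and robust fit, 1633 with untreated cells as the control, and 136 at an adjusted p under 0.1. With no replicate block for time it was 0, and with each time left out it ran from 0 to 8. Against DMSO, 0 became at most 4 without a time. Against untreated, 1633 became 3536 with median centring (756 higher and 2780 lower, with the median of all genes at -0.15 in place of -0.01), 1319 as deposited (994 higher and 325 lower), 952 with no filter, 329 without the time block, and 0 to 326 with each time left out. DMSO minus untreated, 1415, became 3644 with median centring (790 higher and 2854 lower), 1690 as deposited (1553 higher and 137 lower), 883 with no filter, 363 without the time block, and 0 to 238 with each time left out. The change per hour was called for 7 genes with median centring, and 2 to 5 h less 0 to 1 h for 0 to 24 with each time left out. The 1566 genes of 9 to 15 h less 2 to 5 h became 214 with median centring (161 higher and 53 lower), 696 as deposited (249 higher and 447 lower), and 544 to 2502 with each time left out, the highest without 9 h.

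The 670 genes above both controls became 392 with median centring, 237 as deposited, 1816 with DMSO alone and 3019 with untreated alone, and 1299 to 1601 with each time left out. The 1011 below became 2241 with DMSO alone, 3445 with untreated alone and 1651 to 2091 with each time left out. The 29 above by over 1.25-fold became 17, 13, 68 and 737 in the same 4 settings and 41 to 176 with each time left out. The 20 actin and SRF genes became 12 with median centring and 22 to 24 with each time left out, and their median of 0.38 ran from 0.35 to 0.55. Named genes whose sign turned were Klf15 (-0.042 with median centring, -0.012 without 5 h, -0.062 with untreated alone), Cebpa (0.0071 as deposited, 0.036 without 2 h, 0.049 with untreated alone), Dlk1 (0.046 as deposited, -0.058 to 0.027 with each time left out, 0.051 with untreated alone), Myc (0.077 with the mean of probes), Egr1 (1e-04 without 3 h, 0.12 with untreated alone), Pfn1 (0.068 with DMSO alone), Fabp4 (-0.032 with DMSO alone) and Fosb (-0.10 with DMSO alone). The causes were not tested. A count with fewer times or 1 control has fewer conditions to meet.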
